A study of Mus musculus with 6 samples.

Results

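Inhibitory receptors of microglia, the ligands that engage them and the phosphatase that carries their signal were followed as a set of 10 genes, chosen by name as Cd33, Siglece, Sirpa, Cd47, Cd200r1, Cd200, Lilrb4a, Pirb, Ptpn6 and Cd300a. Of these 10 genes, 9 were matched among the 26789 genes of the expression table, and all 9 passed the filter on low values, set at an average of 10 normalized counts across libraries, as did 18007 genes in all. Lilrb4a was not matched and was not analysed here. The libraries came from microglia of young mice whose mothers had eaten either a control diet or a diet low in sodium during early gestation, with 3 libraries in each group, and the comparison asks whether the maternal diet left a mark on gene expression in the microglia of the offspring. The study's methods describe microglia sorted with magnetic beads against CD11b from the rostral nucleus of the solitary tract, the first taste relay of the brainstem, in the third postnatal week, and each library combines tissue from the young of a single mother. According to those methods mice of both sexes were used, the mothers returned to standard chow after the low-sodium period, and the strain is named only for mice of other experiments, among them controls given as C57Bl/6. The labels of the libraries instead name laser microdissection and other RNA and library kits, so how the cells were obtained is uncertain. Values are normalized counts per gene that share no common step within a library, so they are not reads divided by a single factor, and the reads behind each value are unknown. The title of the table refers to surrogate variables (sva), a way of adjusting for unwanted variation, and whether the values, zeros and differences included, carry such an adjustment is not given in the sources used here. Where 3 values stand together for a group, they are those of replicates 1, 2 and 3 in this order.

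Brain cells carry surface molecules that hold phagocytes back. CD47, present on most cells, binds SIRPα on microglia, and CD200, carried chiefly by neurons and endothelial cells, binds CD200R1. Receptors of the Siglec family read sialic acid on glycoproteins and glycolipids, PIR-B binds MHC class I molecules and CD300a binds lipids exposed on dying cells. Many of these receptors carry tyrosine motifs in their tails that, once phosphorylated, recruit phosphatases such as SHP-1, the product of Ptpn6, which damp the kinases of activating receptors. In the developing brain the CD47 and SIRPα pair is known to protect synapses from removal by microglia.

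Control replicate 2 stood apart from the other 5 libraries. Its normalized counts summed to 17204618, against 9671119 and 11910787 in control replicates 1 and 3 and 9407141, 11192984 and 14656956 in low-sodium replicates 1, 2 and 3, and it had the most genes listed at 0, at 10640, against 3459 to 7135 in the other libraries. All 10 of 10 microglial markers were found and none was at 0 in any library, and their summed level was 104162, 515545 and 250160 normalized counts in the controls and 103396, 238865 and 320309 in the low-sodium libraries. The most abundant of them was Csf1r, the receptor for colony-stimulating factor 1, at 48984, 280071 and 106427 normalized counts in the controls and 53504, 108590 and 140889 in the low-sodium libraries. Control replicate 2 was thus the highest library for the microglial markers, and control replicate 1 and low-sodium replicate 1 were the lowest. In bulk libraries fewer microglia and less RNA per microglial cell cannot be told apart.

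Markers of other cell types also differed between libraries. For brain endothelial cells 8 of 8 markers were found, with a summed level of 13911, 4549.7 and 14238 normalized counts in the controls and 13109, 9103 and 15072 in the low-sodium libraries. The most abundant was Flt1, at 4934, 95.4 and 5946 normalized counts in the controls and 4019, 2804 and 5761 in the low-sodium libraries, and Ly6c1 was at 0 in control replicate 2, whereas Pecam1 and Cldn5 of the same list had their highest values there, 3154 and 1207 normalized counts. For mural cells and fibroblasts 7 of 7 markers were found, with a summed level of 14512, 934 and 11927 normalized counts in the controls and 15571, 5596 and 7997 in the low-sodium libraries. Control replicate 2 was the lowest library for both vascular lists, and Kcnj8 was at 0 there. The most abundant mural marker was Rgs5, at 12048, 473 and 9508 normalized counts in the controls and 11448, 4418 and 6285 in the low-sodium libraries. For neurons 10 of 10 markers were found, with a summed level of 3279, 2308 and 1369.8 normalized counts in the controls and 3711, 1898 and 1347 in the low-sodium libraries, and Syt1, Rbfox3 and Stmn2 were at 0 in control replicate 2. The most abundant neuronal marker was Map2, at 1328, 1486 and 284 normalized counts in the controls and 1456, 435 and 443 in the low-sodium libraries, and both Map2 and Gad1 were highest in control replicate 2. For astrocytes 7 of 7 markers were found, with a summed level of 9132, 1738 and 5579.8 normalized counts in the controls and 9725, 4723 and 5092 in the low-sodium libraries. Gfap and Aldh1l1, both used to define astrocytes, were at 0 in control replicate 2. The most abundant astrocyte marker over the libraries was Slc1a2, at 7637, 211 and 4185 normalized counts in the controls and 5683, 2782 and 2949 in the low-sodium libraries, while Slc1a3 was at 1420 in control replicate 2, its second highest library.

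Border-associated macrophages, which line the vessels and meninges and share many receptors with microglia, had 6 of 6 markers found, with a summed level of 5694, 20542 and 7943 normalized counts in the controls and 5144, 9020.5 and 9489 in the low-sodium libraries. Their most abundant marker, Mrc1, ranged from 3083 normalized counts in low-sodium replicate 1 to 9716 in control replicate 2. For monocytes and neutrophils 7 of 8 markers were found, with S100a9 the most abundant and a summed level of 639, 3195 and 509 normalized counts in the controls and 741, 801 and 682 in the low-sodium libraries. Control replicate 2 was the highest library for both of these lists, and Ly6g, which defines neutrophils, was at 0 in 3 libraries. For lymphocytes 8 of 9 markers were found, with Cd4 the most abundant, a summed level of 253, 425 and 507 normalized counts in the controls and 774, 987 and 648 in the low-sodium libraries, and the T cell marker Cd3e at 0 in control replicates 1 and 2. For oligodendrocytes 8 of 8 markers were found, with Mbp the most abundant and a summed level of 43533, 17134 and 5099 normalized counts in the controls and 16987, 24161 and 5937 in the low-sodium libraries. Mag, a myelin marker, was at 0 in 4 libraries, and lymphocytes were the only list of the 11 whose sum was higher in every low-sodium library than in every control. Choroid plexus markers, 5 of 5 found and led by Ttr, summed to 7146, 572 and 18942 normalized counts in the controls and 40082, 58.0 and 517 in the low-sodium libraries, with Folr1 at 0 in control replicate 2. Erythroid markers, 5 of 5 found and led by Hba-a2, summed to 169, 11.2 and 219 normalized counts in the controls and 54.1, 2.31 and 95.5 in the low-sodium libraries. The part of any of these cell types in the results that follow was not tested.

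For none of the 9 genes did the difference between diets exceed the spread between libraries in the test. With limma on log2(normalized count + 1), two-sided, 0 of 9 passed a Benjamini-Hochberg adjusted p of 0.1 taken over all 18007 genes, as did 0% of all genes, and each of the 9 had an adjusted p of 0.999. At an unadjusted p under 0.05 the count was 0 of 9, beside 268 genes or 1.49% of all genes tested. The control and low-sodium libraries overlapped in all 9 genes, where 5.90% of all genes had groups that did not overlap. The mean log2 level was lower in low-sodium mice for 7 of 9 genes and higher for Sirpa and Pirb, with a median difference of -0.26, whereas 45.6% of all genes tested were lower and their median difference was 0.09. Leaving out control replicate 2 left 4 of 9 lower. The count of genes with an unadjusted p under 0.05 was 878 without control replicate 1, none of them past the adjusted threshold. Weighting the libraries by their quality gave 1396 such genes, with 4 past the threshold, none of them among the 9. These counts are over all genes, including those that passed the filter on low values only through 1 diet. Without low-sodium replicate 3, 1 gene passed, not one of the 9. The study itself used DESeq2, a test on counts, with an adjusted p under 0.1. It lists genes in both directions, none of them among the 9. Here limma on log2 normalized values stands in for that test, so 0 genes past the threshold does not show that no gene differs.

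**Figure D1:**
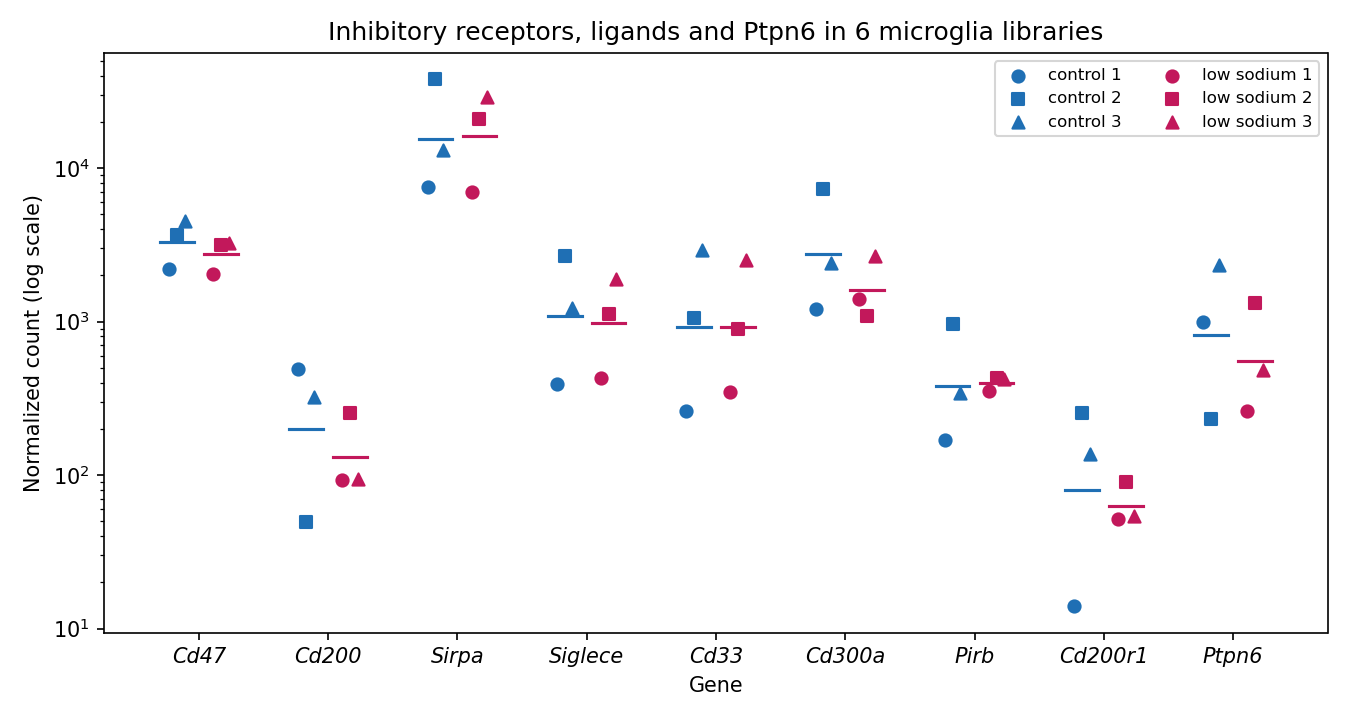
Normalized counts of 9 genes on a log axis in each of the 6 libraries, control in blue and low sodium in magenta, with the marker shape giving the replicate and a line at the mean of log2(normalized count + 1). The groups overlap for every gene, and control replicate 2 is the highest library for 5 genes and the lowest for Cd200 and Ptpn6.

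Among the ligands, Cd47 was the steadiest of the 9 genes. Cd47 (ENSMUSG00000055447, chr16:49800533-49915010 on the plus strand), the SIRPα ligand on nearly all cells, had 2209, 3646 and 4520.1 normalized counts in the controls and 2055, 3167 and 3253 in the low-sodium libraries. Its highest and lowest libraries differed 2.20-fold, the controls were the more spread, and low-sodium replicates 2 and 3 lay within the range of the controls. Its mean log2 level was 11.69 ± 0.53 in controls and 11.43 ± 0.37 in low-sodium mice (SD, n = 3 libraries each). The difference, low sodium minus control, was -0.26 (standard error 0.49, 95% interval -1.33 to 0.81) and an exact permutation test, two-sided, gave p = 0.5, where 3 libraries against 3 allow no p below 0.1. A decrease of more than 1.33 on the log2 scale or an increase of more than 0.81 lay outside the interval. Without control replicate 1 every low-sodium library was below both remaining controls, where 17.8% of all genes had groups without overlap, and the difference was -0.55. It was -0.04 without control replicate 3, -0.05 without low-sodium replicate 1 and -0.19 without control replicate 2.

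Cd200 (ENSMUSG00000022661, chr16:45382135-45409053 on the minus strand), the ligand of CD200R1, is made mainly by neurons and endothelial cells, and its level is given beside the markers of those cells. It had 491, 49.3 and 320.3 normalized counts in the controls and 93.3, 252 and 94.6 in the low-sodium libraries. The lowest library was control replicate 2, and the highest were control replicates 1 and 3. In control replicate 2 the endothelial sum was also lowest, with Pecam1 and Cldn5 at their highest, while the neuronal sum was above those of 3 other libraries, with 3 neuronal markers at 0 and Map2 and Gad1 at their highest. The low-sodium libraries all lay between control replicate 2 and control replicate 3. Its mean log2 level was 7.64 ± 1.75 in controls and 7.04 ± 0.82 in low-sodium mice (SD, n = 3 libraries each), and the difference was -0.60 (standard error 0.90, 95% interval -2.59 to 1.39) with an exact permutation p of 0.6. Without control replicate 2, every low-sodium library was below both remaining controls, where 14.4% of all genes had groups without overlap. The difference was then -1.59 (standard error 0.62, limma unadjusted p = 0.0353, adjusted p = 1). Without control replicate 1 it was 0.05, and this was the only library whose removal turned the direction.

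Sirpa (ENSMUSG00000037902, chr2:129592835-129632228 on the plus strand), the receptor for CD47, was the most abundant of the 9 genes per kilobase of exon in each of the 6 libraries. It had 7526, 37784 and 13044 normalized counts in the controls and 6992, 20716 and 29074 in the low-sodium libraries. Control replicate 2 was the highest library, followed by low-sodium replicates 3 and 2, and control replicate 1 and low-sodium replicate 1 were low in about equal measure. On the log2 scale it averaged 13.92 ± 1.18 in controls and 13.98 ± 1.07 in low-sodium mice (SD, n = 3 libraries each). The difference was 0.06 (standard error 0.76, 95% interval -1.62 to 1.74), with an exact permutation p of 1. Without control replicate 2 it was 0.70, and without control replicate 1 it was -0.46.

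Siglece (ENSMUSG00000030474, chr7:43651070-43660161 on the minus strand), a sialic acid receptor with inhibitory motifs, followed nearly the same order of libraries as Sirpa. It had 394, 2667 and 1222 normalized counts in the controls and 431, 1126 and 1889 in the low-sodium libraries. Control replicate 2 was again the highest and both replicates numbered 1 the lowest, with the other 3 libraries in between. The log2 level averaged 10.09 ± 1.39 in controls and 9.93 ± 1.08 in low-sodium mice (SD, n = 3 libraries each), and the difference was -0.16 (standard error 0.75, 95% interval -1.81 to 1.49) with an exact permutation p of 0.9. The sign turned without control replicate 2, to 0.48, without low-sodium replicate 1, to 0.42, and with libraries weighted by their quality.

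Cd33 (ENSMUSG00000004609, chr7:43524216-43544428 on the minus strand), another sialic acid receptor, had 259.5, 1052 and 2905 normalized counts in the controls and 347, 897 and 2526 in the low-sodium libraries. Here control replicate 3 and low-sodium replicate 3 were the high libraries, the replicates numbered 1 were low, and the lowest and the highest value, 11.2-fold apart, were both in controls. Its mean log2 level was 9.86 ± 1.75 in controls and 9.85 ± 1.43 in low-sodium mice (SD, n = 3 libraries each). The difference rounded to 0 (standard error 0.90, 95% interval -1.98 to 1.97, exact permutation p = 1), and its sign turned when the libraries were rescaled to the same total (0.12) or by quantiles (0.07). With single libraries left out it ranged from -0.92 to 0.82, and without control replicate 2 it was 0.09.

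Cd300a (ENSMUSG00000034652, chr11:114890041-114904654 on the plus strand), which recognises lipids on dying cells, had the largest difference of the 9 in size. It had 1206, 7322 and 2392 normalized counts in the controls and 1412, 1079.7 and 2681 in the low-sodium libraries. Control replicate 2 held by far the highest value, while the other 2 controls lay among the low-sodium libraries. On the log2 scale it averaged 11.43 ± 1.31 in controls and 10.64 ± 0.67 in low-sodium mice (SD, n = 3 libraries each), and the difference was -0.79 (standard error 0.67, 95% interval -2.26 to 0.68) with an exact permutation p of 0.6. Without control replicate 2 the difference was -0.09, and without control replicate 1 it was -1.39. Of the distinct 50-base windows in its transcripts, 3.45% also occur in other annotated genes, mostly Cd300c2.

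Pirb (ENSMUSG00000058818, chr7:3711409-3720391 on the minus strand), which binds MHC class I, had 169, 969.6 and 341 normalized counts in the controls and 352, 427 and 423 in the low-sodium libraries. The low-sodium libraries lay close together, whereas the controls held both the lowest value, in replicate 1, and the highest, in replicate 2. The log2 level averaged 8.58 ± 1.27 in controls and 8.64 ± 0.16 in low-sodium mice (SD, n = 3 libraries each), and the difference was 0.06 (standard error 0.66, 95% interval -1.39 to 1.52) with an exact permutation p of 0.9. Without control replicate 2 all low-sodium libraries were above the remaining controls, where 14.4% of all genes had groups without overlap. The difference was then 0.73 (standard error 0.48, limma adjusted p = 1), and without control replicate 1 it was -0.53. Pirb belongs to a family of near copies, and 34% of the distinct 50-base windows in its transcripts occur in other genes, 17.7% in Gm14548, so its level is uncertain.

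Cd200r1 (ENSMUSG00000022667, chr16:44765736-44794978 on the plus strand), the CD200 receptor, signals through DOK adaptors and not through the phosphatase. It was the least abundant of the 9 genes per kilobase in 5 of 6 libraries, with 13.99, 255 and 138 normalized counts in the controls and 51.6, 89.9 and 53.9 in the low-sodium libraries. Control replicates held the highest and the lowest values, and the low-sodium libraries lay between them. Its mean log2 level was 6.34 ± 2.15 in controls and 6.001 ± 0.44 in low-sodium mice (SD, n = 3 libraries each). The difference was -0.34 (standard error 1.10, 95% interval -2.75 to 2.07) with an exact permutation p of 0.9. Without control replicate 1 every low-sodium library was below both remaining controls, where 17.8% of all genes had groups without overlap. The difference was then -1.56, whereas without control replicate 2 it was 0.49.

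Ptpn6 (ENSMUSG00000004266, chr6:124720707-124738714 on the minus strand), the phosphatase SHP-1 that most of these receptors recruit, had 1000.3, 233 and 2337 normalized counts in the controls and 260.2, 1327 and 480 in the low-sodium libraries. It was lowest in control replicate 2, next lowest in low-sodium replicate 1 and highest in control replicate 3. The mean of log2 levels was 9.68 ± 1.68 in controls and 9.10 ± 1.18 in low-sodium mice (SD, n = 3 libraries each), and the difference was -0.57 (standard error 0.84, 95% interval -2.43 to 1.29) with an exact permutation p of 0.8. Without control replicate 2 it was -1.47 (standard error 0.73, limma adjusted p = 1), and without control replicate 3 it was 0.19. Its exons overlap those of Gm20531, which lies on the other strand, over 195 bases, and whether the reads were counted by strand is not given in the sources used here.

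**Figure D2:**
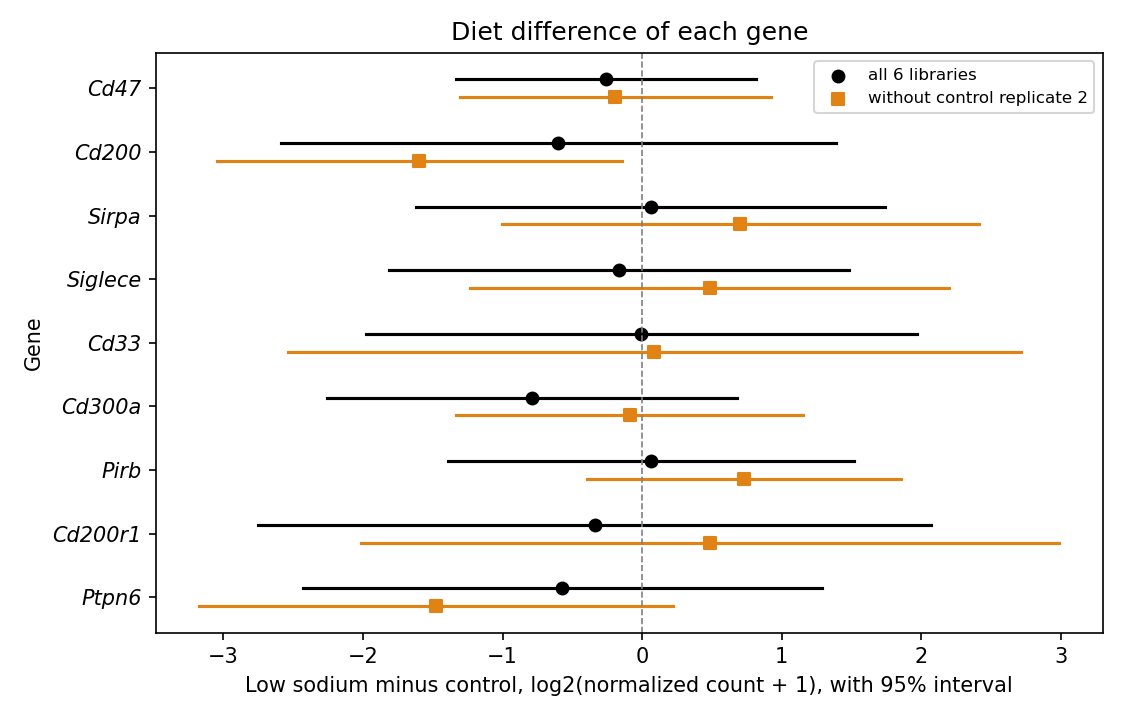
Difference in log2(normalized count + 1), low sodium minus control, for 9 genes with the 95% interval from limma, over all 6 libraries (black circles) and without control replicate 2 (orange squares). All 9 intervals over the 6 libraries include 0, and without control replicate 2 that of Cd200 lies below 0 (-3.05 to -0.14).

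Per kilobase of exon, the levels of the 9 genes followed a loose order. Median normalized counts per kilobase over the 6 libraries were 3437 for Sirpa, 635 for Siglece, 511 for Cd47, 401 for Cd300a and 264 for Ptpn6. The remaining genes were lower, at 125 for Cd33, 86.7 for Pirb, 52.2 for Cd200 and 21.5 for Cd200r1. Sirpa stood above all the others in every library, whereas the order of the others changed from library to library. Cd200 ranked sixth of the 9 in control replicate 1 and last in control replicate 2.

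Set against its receptor per kilobase, Cd47 reached 0.23, 0.0755 and 0.271 of the Sirpa level in control replicates 1, 2 and 3 and 0.23, 0.12 and 0.0876 in low-sodium replicates 1, 2 and 3. The ratio was lowest in control replicate 2 and low-sodium replicate 3, the libraries with the highest microglial markers, and the diets overlapped. On the log2 scale it averaged -2.58 ± 1.003 in controls and -2.90 ± 0.71 in low-sodium mice (SD, n = 3 each), with an exact permutation p of 0.8. The ratio of Cd200 to Cd200r1 per kilobase was 35.4, 0.195 and 2.35 in control replicates 1, 2 and 3 and 1.82, 2.83 and 1.77 in low-sodium replicates 1, 2 and 3. Controls thus held both extremes, and the low-sodium libraries sat near each other. Its mean log2 was 1.34 ± 3.75 in controls and 1.06 ± 0.38 in low-sodium mice (SD, n = 3 each), with an exact permutation p of 0.8.

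Because the microglial markers spread widely between libraries, each level was also taken relative to the mean log2 level of the 10 microglial markers in the same library, a step chosen after the data were seen. The spread over the 6 libraries then shrank for 6 of 9 genes, beside 18.4% of all genes tested. For Siglece the SD went from 1.11 to 0.24 on the log2 scale, for Sirpa from 1.01 to 0.34, for Cd300a from 1.03 to 0.65 and for Cd33 from 1.43 to 0.86. The SD of Pirb went from 0.81 to 0.57 and that of Cd200r1 from 1.40 to 0.91. Those 6 genes are the receptors, and what they share with the markers was not tested. Shrinking was not particular to receptors. Among the further genes of the pathway taken up below, the SD also shrank for Inpp5d (0.77 to 0.22) and Lyn (0.99 to 0.31), which are not receptors. It grew for Fyn (0.89 to 1.62) and for the receptor Cd22 (0.55 to 0.91). The spread grew for both ligands and the phosphatase, from 0.43 to 0.57 for Cd47, from 1.26 to 1.87 for Cd200 and from 1.34 to 1.66 for Ptpn6, as it did in the median over all genes, from 1.05 to 1.44. Relative to the markers, Siglece spanned 1.59-fold between its lowest and highest library and Cd200 41.6-fold. The diet difference on this relative scale was 0.27 for Sirpa (standard error 0.49), 0.04 for Siglece (standard error 0.74) and -0.59 for Cd300a (standard error 0.67), and the limma adjusted p was 0.9997 for each of the 9 genes.

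**Figure D3:**
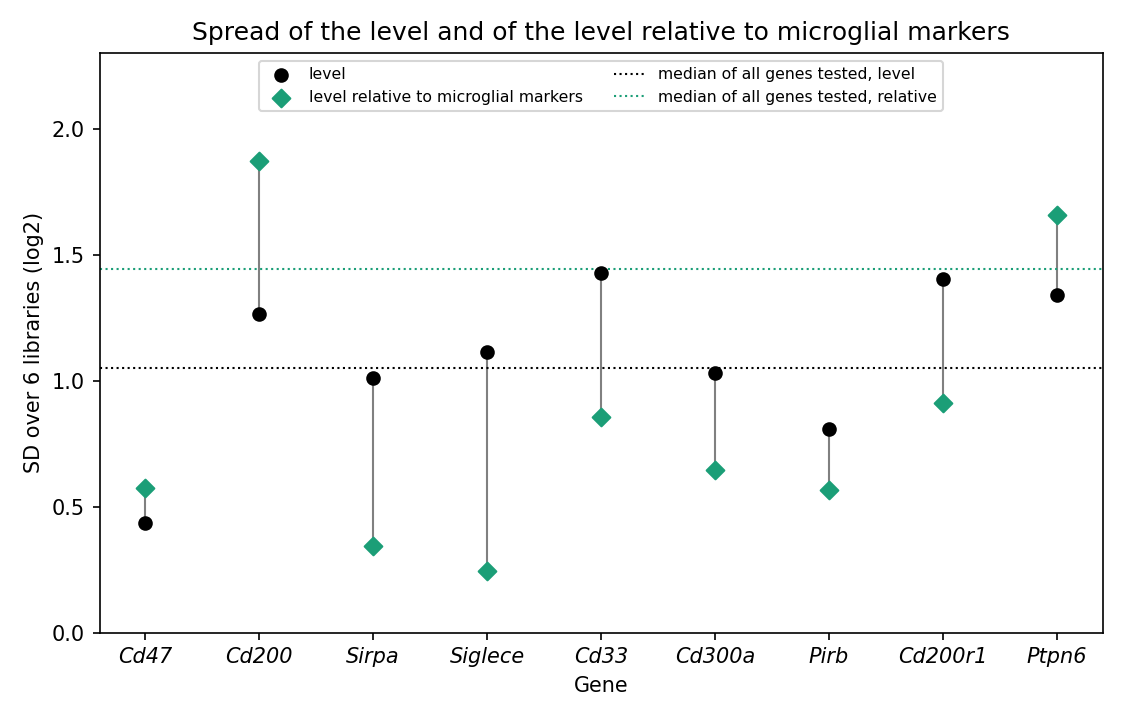
SD over the 6 libraries of log2(normalized count + 1) for 9 genes (black circles) and of the same level relative to the mean of the 10 microglial markers (green diamonds), with dotted lines at the median over all 18007 genes tested (1.05 and 1.44). The 6 receptors moved down and Cd47, Cd200 and Ptpn6 moved up.

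The promoters of the genes also differed in base composition, here counted as CpG, the letters CG, which read the same on both strands. RefSeq promoters on GRCm38.p6 were matched for 7 of the 10 genes, with no entry for Sirpa, Cd200r1 or Lilrb4a. In the 250 bases before the start, Siglece, Cd300a and Pirb each had 1 CpG, a count that 18.8% of 32851 promoters share or undercut, and Cd33 had 3. Ptpn6 had 7 and Cd200 had 6, equal to the median of 6 over all promoters, and Cd47 had 30 at the first of its 2 starts, a count that 5.94% reach. The 4 receptors with an entry thus had fewer CpG than both ligands and the phosphatase, which is a description of 7 genes. Stretches of 100 bases are shown for 2 receptors and both ligands, 5′ to 3′ on the strand of the gene, with each CpG in capitals. They end at the base before the start, and that of Cd47 ends 21 bases earlier, before an annotated exon. The Cd47 stretch lies inside the annotated span of the gene but outside its exons, and the others lie just upstream of their genes.
Siglece (chr7:43660162-43660261, minus strand): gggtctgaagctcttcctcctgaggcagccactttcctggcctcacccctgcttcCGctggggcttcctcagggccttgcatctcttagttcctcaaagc
Cd300a (chr11:114889941-114890040, plus strand): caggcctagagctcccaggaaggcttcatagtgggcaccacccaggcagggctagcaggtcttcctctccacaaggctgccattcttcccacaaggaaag
Cd200 (chr16:45409054-45409153, minus strand): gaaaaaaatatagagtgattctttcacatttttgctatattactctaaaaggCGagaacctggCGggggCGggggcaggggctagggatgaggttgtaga
Cd47 (chr16:49855533-49855632, plus strand): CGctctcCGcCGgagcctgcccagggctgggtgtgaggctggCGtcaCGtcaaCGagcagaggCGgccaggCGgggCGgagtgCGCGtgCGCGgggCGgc
The Cd47 stretch holds 14 CpG, that of Cd200 holds 3, that of Siglece 1 and that of Cd300a 0.

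Beyond the 9 genes, 6 further lists of the pathway were examined, 90 genes in all, of which 87 were found and 78 tested. Of the 78, Skap2 and Tyrobp reached an average of 10 normalized counts in the controls only and so passed the filter through the group where they were high, as 1848 of all 18007 genes did through one diet or the other. They are left out of the counts over the lists together, though not of the directions list by list, and no test is given for either. With limma 0 of the other 76 passed the adjusted p of 0.1, 2 had an unadjusted p under 0.05 and 4 had groups that did not overlap, beside 1.29% and 5.46% of the 16159 genes that reached the filter in both diets. Of the 76, 31 were higher and 45 lower in low-sodium mice, with a median difference of -0.14. This lean turned without control replicate 2 and without low-sodium replicate 1, each leaving 32 lower, and relative to the microglial markers, with 33 lower.

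Other inhibitory receptors were represented by 16 tested of 18 listed, 6 higher and 10 lower, where leaving out control replicate 2 or low-sodium replicate 1 gave 6 lower. Cd22, a Siglec that is inhibitory in B cells and microglia, had 97.5, 177 and 138 normalized counts in the controls and 203, 307 and 185 in the low-sodium libraries. It was higher in every low-sodium library than in every control, by 0.75 (standard error 0.63) on the log2 scale. Of the 16 tested, only Cd22 had groups that did not overlap, beside 5.90% of all genes tested. The exact permutation p was 0.1, the smallest possible, which every gene without overlap reaches. After quantile normalization, or relative to the microglial markers, the Cd22 groups overlapped. Its exons overlap Gm29439 on the other strand over 479 bases. Lair1, an inhibitory receptor for collagens, had 3158, 7464 and 10521 normalized counts in the controls and 1238, 5106 and 5524 in the low-sodium libraries. Its groups overlapped, with a difference of -0.94 (standard error 0.69), which was -0.24 without low-sodium replicate 1, -0.57 without control replicate 3 and -1.44 without control replicate 1.

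Activating relatives of the inhibitory receptors, which share their ligand domains but lack the inhibitory tail, were represented by 10 tested of 19 listed, 4 higher and 6 lower, or 3 lower without control replicate 2. Cd300ld, an activating relative of Cd300a, had 132, 29.8 and 134 normalized counts in the controls and 297, 174 and 465 in the low-sodium libraries. Every low-sodium library was above every control, where 5.90% of all genes tested had groups without overlap in either direction. The difference was 1.82 (standard error 0.79), with a limma unadjusted p of 0.0413 and an adjusted p of 0.999. Lilra5, which signals through an adaptor with activating motifs, had 38.7, 563 and 101 normalized counts in the controls and 14.7, 30.3 and 24.6 in the low-sodium libraries. Every low-sodium library was below every control, with a log2 difference of -2.50 (standard error 1.10), a limma unadjusted p of 0.0447 and an adjusted p of 0.999. Control replicate 2 held the lowest Cd300ld and the highest Lilra5 value, and without it the differences were 1.11 and -1.45, with limma unadjusted p of 0.0885 and 0.163. Relative to the microglial markers the Cd300ld groups overlapped, as did the Lilra5 groups after quantile normalization. Neither gene had an unadjusted limma p under 0.05 at the same total, relative to the microglial markers or without low-sodium replicate 3.

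Phosphatases and adaptors of the inhibitory receptors were all tested, 14 of 14, with 5 higher and 9 lower. At the same total, or relative to the microglial markers, 5 were lower, and without control replicate 2 the count was 6. Skap2, an adaptor that acts with SIRPα and integrins in macrophages, had 56.6, 144 and 30.9 normalized counts in the controls and 10.2, 0 and 0 in the low-sodium libraries. Each low-sodium library was below each control, and Skap2 was listed at 0 in 2 of them. The study's count test lists Skap2 as lower in low-sodium mice. Of 75 cytosolic ribosomal protein genes, which every cell uses, 6 were also listed at 0 in some library. Dok3, an adaptor that restrains immune receptor signals, had 46.5, 96.7 and 156 normalized counts in the controls and 77.0, 261 and 165 in the low-sodium libraries, with overlapping groups and a difference of 0.74 (standard error 0.80), which ranged from 0.28 without control replicate 1 to 1.21 without low-sodium replicate 1.

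Kinases and adaptors of the opposed activating signal were all tested, 11 of 11, with 3 higher and 8 lower. The lower ones numbered 4 without control replicate 2, without low-sodium replicate 1 or with libraries weighted by their quality. Tyrobp, the adaptor DAP12 on which many activating receptors of microglia depend, had 182, 59.5 and 1494 normalized counts in the controls and 0, 0 and 0 in the low-sodium libraries. It was listed at 0 in all low-sodium libraries and was above 0 in every control, and so passed the filter through the controls only. The cause of these zeros was not tested, and the reads behind them are unknown. In the same 3 libraries the microglial marker Csf1r had 53504, 108590 and 140889 normalized counts. The study's list of genes lower in low-sodium mice does not name Tyrobp. Fcer1g, the other adaptor of this kind, had 2449, 2907 and 6808 normalized counts in the controls and 3221, 5194 and 16534 in the low-sodium libraries. Its groups overlapped, low-sodium replicate 3 being the highest, with a difference of 0.84 (standard error 0.67). Without that library it was 0.17, and without low-sodium replicate 1 it was 1.35. The study's count test lists this adaptor as higher in low-sodium mice.

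Further ligands of inhibitory receptors were all tested, 9 of 9, with 4 higher and 5 lower and no list member without overlap. H2-K1, an MHC class I heavy chain, had 3408, 3133 and 5226 normalized counts in the controls and 1158, 3259 and 4938 in the low-sodium libraries and a difference of -0.53 (standard error 0.59), which turned to 0.07 without low-sodium replicate 1. Fn1, fibronectin, had 42.5, 0 and 109 normalized counts in the controls and 43.1, 34.8 and 113 in the low-sodium libraries. The difference of 1.74 (standard error 1.64) came with a listed 0 in control replicate 2, and without that library it was -0.29.

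Genes of sialic acid metabolism, which make, attach or remove the sugar that the Siglecs bind, were represented by 18 tested of 19 listed, 9 higher and 9 lower. The lower ones numbered 13 after quantile normalization, 12 without control replicate 3 and 8 at the same total. The 9 higher include the sialidases Neu1, Neu3 and Neu4, which remove it, with log2 differences of 0.03, 0.07 and 0.06. Their standard errors were 0.54, 0.73 and 1.08. Each sign turned with single libraries left out, to as low as -0.33, -0.42 and -0.71. Slc35a1, the carrier that brings activated sialic acid into the Golgi, had 280.3, 175 and 137 normalized counts in the controls and 125, 71.8 and 26.1 in the low-sodium libraries. Every low-sodium library was below every control, where 5.90% of all genes tested had groups without overlap in either direction. The log2 difference was -1.59 (standard error 0.81), with a limma adjusted p of 0.999. The exact permutation p was 0.1, the smallest possible, which every gene without overlap reaches. Without low-sodium replicate 3 the difference was -0.98, and at the same total or relative to the microglial markers the groups overlapped. Nans, the enzyme that forms the sialic acid skeleton, had 137, 234 and 109.8 normalized counts in the controls and 143, 872 and 288 in the low-sodium libraries and a difference of 1.11 (standard error 0.74). Low-sodium replicate 2 was by far its highest library, and the difference was 0.41 without it and 1.71 without low-sodium replicate 1. Of its distinct 50-base windows, 28.6% occur in Trim14 on the other strand, so its level is uncertain.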

How the data were processed

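The authors deposited normalized counts per gene, a normalized signal and not raw reads, for 6 libraries. The submitters' processing notes name FastQC, STAR, featureCounts, DESeq2 and the GRCm38 build, with no versions. The study's methods give sequencing depth only as a range over samples, and the reads assigned in each library are unknown. The table's title refers to surrogate variables, and whether the values were adjusted for them is not given. Levels were taken as log2(normalized count + 1) and compared between diets with limma 3.58.1 (R 4.3.3) with a mean-variance trend, for genes with a mean of at least 10, two-sided, with Benjamini-Hochberg adjustment and a threshold of 0.1. Beside it, an exact permutation test over the 6 libraries was run for each gene. The procedure was tested on simulated data. Gene models came from GENCODE M21. All 10 genes were to be named, and from each of 6 further lists any gene past the threshold or with an unadjusted p under 0.05, otherwise the gene with the smallest p in each direction. Of 11 marker lists, the most abundant gene and defining markers at 0 were named, apart from an item that is not reported here. The genes and lists were chosen with earlier results of these data known.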

Additional observations from a re-analysis of the deposited data

How the results depend on the processing

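No gene among the 9 passed the adjusted threshold of 0.1 under any of the 17 alternatives run, with smallest limma adjusted p between 0.558 and 1. The numbers of the replicates were not taken to pair the libraries, since not every same-numbered pair had deviations correlated above 0.1 across genes (r of 0.26, 0.0348 and 0.142). Each library other than control replicate 2 correlated best with its own number, control replicate 2 with low-sodium replicate 3, and pairs of unlike number ranged from -0.25 to 0.0868. The mean-variance trend in limma was adopted after the fit without it had been seen, which gave 0 genes past the threshold (smallest adjusted p 0.225, range over alternatives 0.0066 to 0.9999) and 327 with an unadjusted p under 0.05. With replicate numbers as a block, 0 genes passed and 478 had an unadjusted p under 0.05. Of the 76 list genes reaching the filter in both diets, 3 had such a p, against 2 in the main fit. Genes past the threshold over all genes numbered 4 with libraries weighted by quality and 0 to 1 with single libraries left out. Genes with an unadjusted p under 0.05 numbered 143 with a mean of at least 100, 1396 with weights and 101 relative to the microglial markers (chosen after seeing the data), and 188 to 878 with single libraries left out. Of the 9 genes, 4 to 8 were lower, 0 to 1 had an unadjusted p under 0.05 and 0 to 2 had groups that did not overlap with single libraries left out, beside 12.6% to 17.8% of all genes, and 1, Ptpn6, had such a p with weights. Genes of the 6 lists with such a p, Skap2 and Tyrobp counted where tested, numbered 2 with a mean of at least 100. They numbered 2 at the same total, 8 with weights, 2 relative to the markers and 2 to 5 with single libraries left out. For list genes reaching the filter in both diets, the count was 1 with a mean of at least 100, 0 at the same total and 6 with weights. It was 0 relative to the markers and 0 to 3 with single libraries left out. The Cd33 difference turned to 0.071 after quantile normalization, 0.12 at the same total and 0.20 relative to the markers, that of Siglece to 0.14 with weights and 0.042 relative to the markers, and that of Fn1 to -0.50 with weights. With single libraries left out the log2 differences ranged from -0.92 to 0.82 for Cd33, -0.89 to 0.48 for Siglece, -0.46 to 0.70 for Sirpa, -1.56 to 0.49 for Cd200r1, -1.59 to 0.050 for Cd200, -0.53 to 0.73 for Pirb, -1.47 to 0.19 for Ptpn6, -0.29 to 3.10 for Fn1 and -0.98 to 0.070 for H2-K1. The log2 ratio difference ranged from -0.90 to 0.026 for Cd47 to Sirpa and from -2.12 to 1.63 for Cd200 to Cd200r1. The cause was not tested. Rescaling to the same total moved the median of all genes from 0.09 to 0.20, and the step relative to the markers to 0.29. The count tests planned on recovered reads were not run, as values within a library were no multiples of a common step (at most 5.79% of low values within 0.02 of a whole step). With 3 libraries a group, no exact p can be below 0.1.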
